A study of Drosophila melanogaster with 4 samples.

Results

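Broad domains of H3K27me1 in adult fly heads are described here, taken as the clusters of at least 10000 bp in the authors' list for the replicate set. They were chosen by their width in that list alone, and 612 of its 9662 clusters (6.33%) qualified. The study used chromatin immunoprecipitation followed by sequencing (ChIP-seq) on head nuclei of wild-type Oregon-R Drosophila melanogaster at a stage labelled mixed adult, with a Millipore antibody to H3K27me1. All 4 libraries share that strain, genotype, stage and tissue: 2 are ChIP replicates and 2 are their Input libraries. Each ChIP replicate has a cluster list of its own, and another list covers the replicate set. Separate fly collections for the replicates are not stated in the labels, so the spread between them may be technical.

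Histone H3 carries a lysine at position 27 that the Polycomb enzyme E(z) can methylate once or more, and H3K27me1 is the monomethylated state. In mammals it is known from the bodies of active genes, whereas the trimethylated state is known for wide domains over silenced Polycomb targets. In polytene chromosomes of flies, H3K27me1 has also been described in heterochromatin. Heads hold many cell types, so a stronger mark per cell and a mark in more cells cannot be told apart in these lists. Whether the antibody also binds other methylation states was not tested here. Coordinates are those of FlyBase release 5, per the file headers. No gene annotation of that release was used here, so the domains are named by position and no sequence is shown.

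The domains held 9.42 Mb, which was 25.5% of the length of all replicate-set clusters. Their median width was 13384 bp, with quartiles of 11667 and 16801 bp. Domains of 10 to 12 kb numbered 192, those of 12 to 15 kb 203, those of 15 to 20 kb 120, those of 20 to 30 kb 73 and those of 30 kb or more 24. The rule cuts through a continuous range of widths. The 3 narrowest members lay on 3L from 7188052 to 7198052 (10001 bp, score 0.52), on 3R from 25650676 to 25660704 (10029 bp, score 0.98) and on 2L from 13004606 to 13014640 (10035 bp, score 0.74). The 3 widest clusters left out lay on 2R from 546760 to 556756 (9997 bp, score 0.88), on X from 19284228 to 19294220 (9993 bp, score 0.74) and on 3L from 3580776 to 3590754 (9979 bp, score 0.50). Scores on both sides of the minimum spanned a similar range.

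Most domains lay on the large autosomal arms. Arm 3R held 148, 3L 132, 2R 119 and 2L 110, or 5.30, 5.38, 5.63 and 4.78 per Mb. The X held 80, or 3.57 per Mb, and chromosome 4, the small dot chromosome, held 5. The heterochromatic scaffolds held 17 (10 on 2RHet, 5 on 3LHet and 1 each on 2LHet and 3RHet), the unplaced sequence U held 1, and XHet, YHet and Uextra held none. Domains took up 8.22% of the large autosomal arms and 5.02% of the X.

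In the replicate-set list alone, the X held fewer broad domains per Mb than the large autosomal arms but not fewer clusters. Domains per Mb on the X were 0.677 times those on the large autosomal arms, while clusters under 10000 bp were 1.09 times as many per Mb (78.8 against 72.2). Of the X clusters, 4.33% were broad (exact 95% binomial interval 3.45% to 5.36%), against 6.80% (6.24% to 7.40%) on the large autosomal arms. These intervals treat clusters as independent and cover counting error only. In the lists of the single replicates the X held fewer still. Replicate 1 had 24 clusters of 10000 bp or more on the X and 259 on the large autosomal arms, a ratio per Mb of 0.399. Replicate 2 had 8 and 219, a ratio of 0.157. As shares of all clusters there, these were 2.21% and 4.96% in replicate 1, and 0.888% and 3.96% in replicate 2. Clusters of other widths per Mb were compared in the replicate-set list only, so the replicate ratios per Mb may partly reflect X clusters of any width. The shares are taken over all clusters of a list there, and they were lower on the X in both replicates. Both ratios lay below that of the replicate set, and their mean was 0.278 ± 0.171 (SD, n = 2). No test was run, since the arms are compared within each list and only 2 replicates give a spread.

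**Figure D1:**
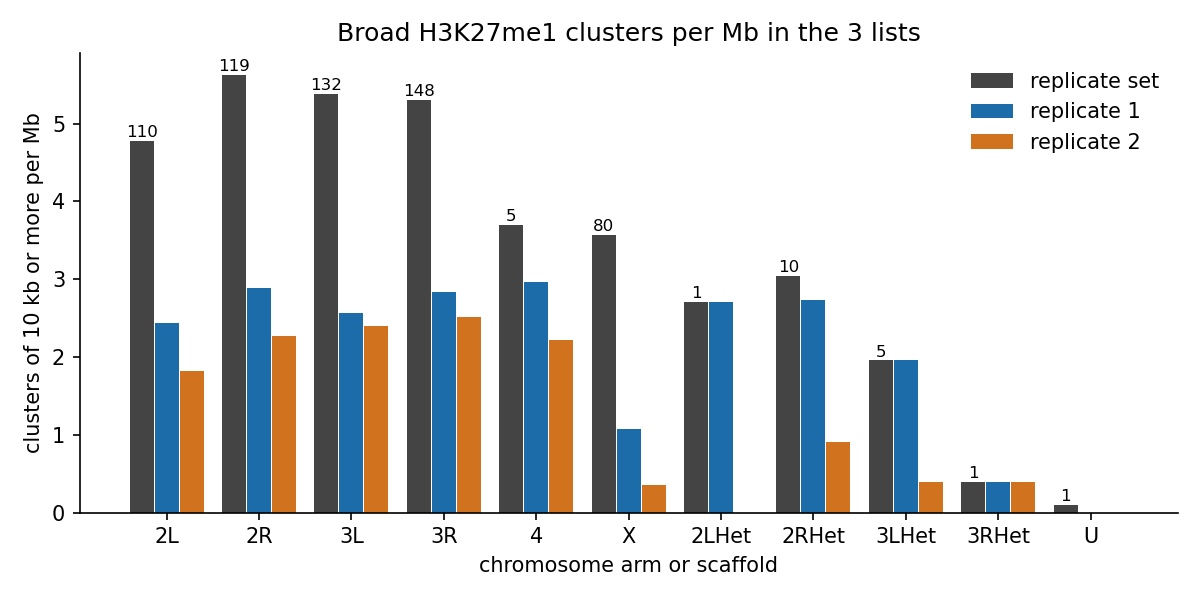
Clusters of 10 kb or more per Mb (y axis) on each chromosome arm or scaffold (x axis) in the replicate-set list and in the list of each ChIP replicate, with the number of replicate-set domains above its bar. The large autosomal arms sit between 4.78 and 5.63 per Mb in the replicate set, and the X at 3.57, with 1.07 and 0.357 in the replicates.

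The authors' score per cluster was higher in the domains than in narrower clusters. Its scale was read from the values as a log2 ratio, and whether it is a mean or a maximum over the cluster is not given in the sources used here. The domains ran from 0.47 through a median of 0.84 to 1.66, and clusters under 10000 bp had a median of 0.49. The difference of 0.35 would be a 1.27-fold ratio of enrichment on a log2 scale. Width and score come from the same list, so this is a description with no test. Of the domains, 605 (98.9%) scored above the median of the narrower clusters, and 1000 narrower clusters scored above the median of the domains. Of those 1000, 118 lay on U, which holds 150 narrower clusters in all.

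Beyond about 8 kb the median score rose little with width. The median score climbed from 0.42 at 1 to 2 kb to 0.51 at 2 to 4 kb, 0.67 at 4 to 6 kb, 0.76 at 6 to 8 kb and 0.81 at 8 to 10 kb. Among the domains it was 0.80 at 10 to 12 kb, 0.84 at 12 to 15 kb, 0.87 at 15 to 20 kb, 0.83 at 20 to 30 kb and 0.88 at 30 kb or more. Spearman's rho between width and score was 0.104 over the 612 domains and 0.583 over the 9050 narrower clusters. Both are correlations across clusters of 1 list, which share libraries and are not independent, and the domains span only part of the range of widths.

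**Figure D2:**
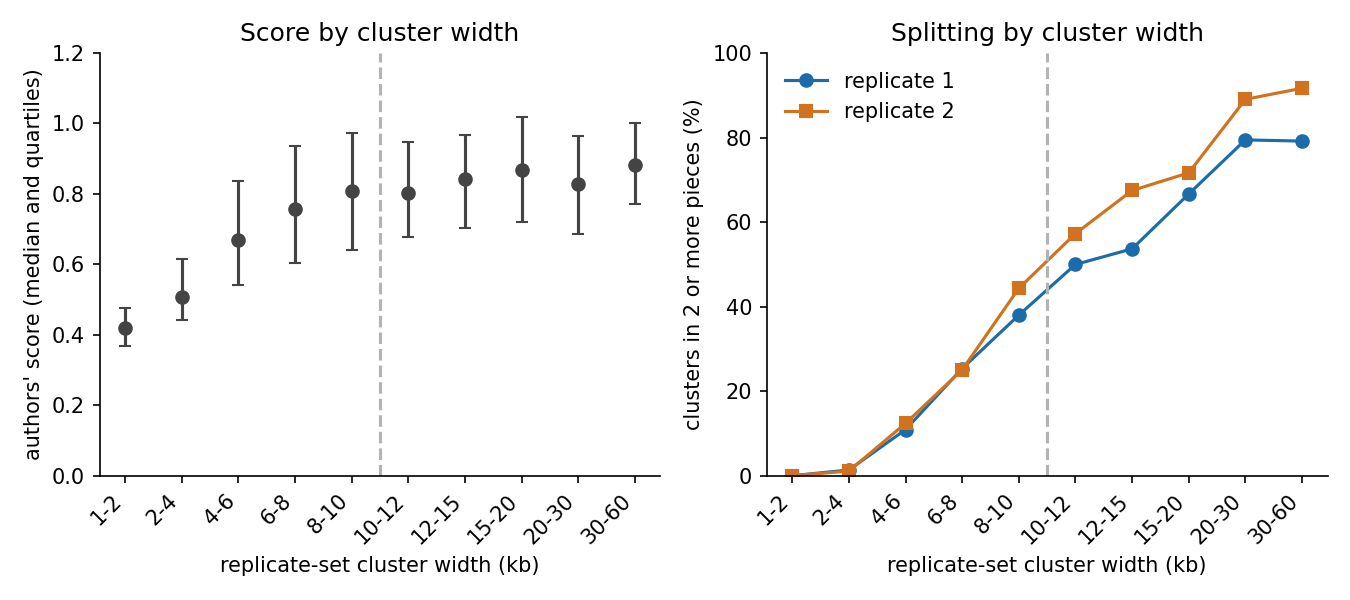
Left, the authors' score (median, with bars for the quartiles) by width class of replicate-set cluster in kb; right, the percentage of those clusters that lie in 2 or more pieces in each replicate. The dashed line marks 10 kb: the median score changes from 0.81 to 0.80 across it, while the split share goes from 38.0% to 50.0% (replicate 1) and 44.4% to 57.3% (replicate 2).

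The highest scores did not belong to the widest domains. The highest, 1.66, was that of the only domain on U, from 4225724 to 4237490 (11.8 kb). Next came 3R from 24658554 to 24669736 (11.2 kb, 1.54), which was 1 cluster in each replicate, with scores of 1.55 and 1.58. The third was 2L from 182958 to 200166 (17.2 kb, 1.5), also 1 cluster in each replicate, at 1.65 and 1.43. The 10 widest domains scored between 0.67 and 1.13.

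Both replicates ranked the domains alike by score. The score of the replicate clusters inside each domain, weighted by the bases they hold there, had a median of 0.91 in replicate 1 and 0.89 in replicate 2. Over the 611 domains with clusters in both, Spearman's rho between the replicates was 0.895, across domains. Across the narrower clusters it was 0.812, so the likeness was not particular to broad domains. Replicate 2 scored lower by a median of 0.02, and the SD of the difference over domains was 0.08. The replicate-set score was the lower one, by a median of 0.07 against replicate 1 and 0.06 against replicate 2. These are unlike measures. The replicate score counts only bases inside that replicate's clusters, and the replicate-set score belongs to the whole domain.

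Nearly the whole set of domains was seen in both replicates. Since the replicate-set list covers these same libraries, the overlap does not check it independently. Of the 612 domains, 611 (99.8%) had at least 1 bp in clusters of both replicates, against 45.6% of all 9662 replicate-set clusters and 41.9% of those under 10000 bp. At least 50% of the length lay in clusters of each replicate for 565 domains (92.3%), against 38.9% of all replicate-set clusters and 35.3% of the narrower ones. Wide clusters have more room to meet another cluster, so the first of these counts is read only beside the second. At a minimum of 90% in both, 175 domains (28.6%) remained, and 8.54% of the narrower clusters. The narrower clusters include 3967 of 1 to 2 kb, whose median covered share was 0 in each replicate. The narrowest cluster was 1001 bp in the replicate set but 1301 bp in each replicate list. The replicate set held 37.0 Mb of clusters, against 24.5 Mb in replicate 1 and 23.3 Mb in replicate 2. How far these unlike lists account for the contrast with narrower clusters was not tested.

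The replicates covered 83.7% ± 2.79 (SD, n = 2) of the domain length, 85.7% in replicate 1 and 81.7% in replicate 2. Clusters under 10000 bp were covered to 58.9% and 56.0%. No step was seen at the minimum width. The median covered share was 88.9% and 83.0% at 8 to 10 kb, and 89.1% and 82.9% at 10 to 12 kb. Of the domain bases, 74.8% lay in clusters of both replicates, 10.9% in replicate 1 alone, 6.94% in replicate 2 alone and 7.36% in neither. The bases in neither were more often at the ends of a domain (4.50% of the length) than inside it (2.87%). The outermost replicate cluster began a median of 232 bp inside the domain edge in replicate 1 and 330 bp in replicate 2. Few replicate clusters reached beyond an edge, 10.1% of 1223 in replicate 1 and 5.85% of 1367 in replicate 2.

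**Figure D3:**
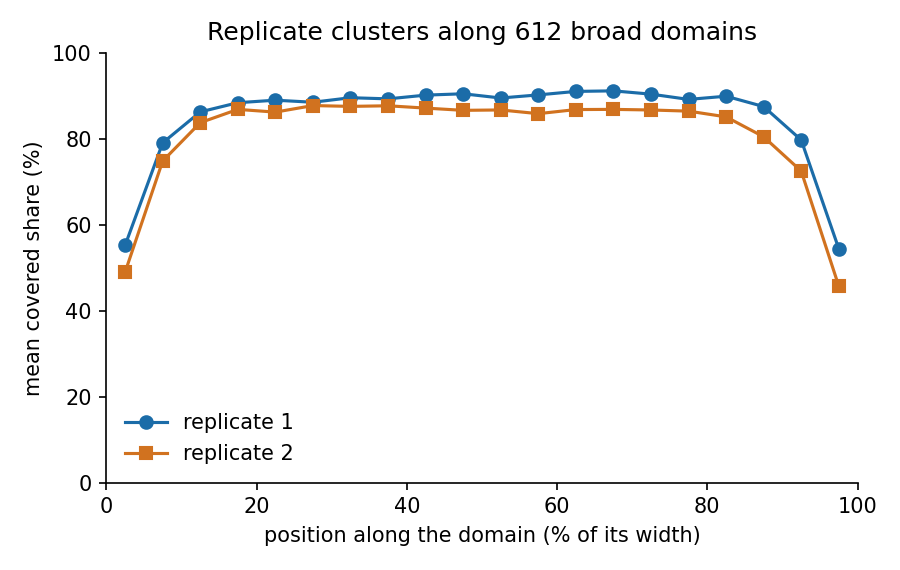
Mean share of the 612 domains lying in clusters of each replicate (y axis, %) at 20 positions along the domain (x axis, % of its width). Both replicates stay between 80.5% and 91.2% at all but the 2 outermost positions of each end and drop to between 45.8% and 55.2% at the ends themselves.

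On the X the domains were filled less than on the autosomes, most of all in replicate 2. Replicate 1 clusters took up 80.9% and replicate 2 clusters 66.4% of the length of the 80 X domains, and 86.1% and 84.0% of that of the 509 domains on the large autosomal arms. The difference was -5.18 percentage points in replicate 1 and -17.6 in replicate 2, or -11.4 ± 8.81 on average (SD, n = 2), so its sign was the same in both replicates while its size varied widely. Replicate 1 covered more than replicate 2 in 69 of 80 X domains and in 294 of 509 autosomal ones. With only the upper 50% of each replicate list by score, the difference was 2.57 in replicate 1 and -4.54 in replicate 2, so its sign turned in replicate 1. The median score of the X domains was 0.86 in the replicate set, 0.94 in replicate 1 and 0.94 in replicate 2, and that of the large autosomal arms was 0.83, 0.91 and 0.88. At 10 to 12 kb, which holds 31 of the 80 X domains, the X median in the replicate set was the lower one, at 0.76 against 0.81. Over all 612 domains, higher scores went with more coverage, with a Spearman's rho of 0.726 between the score and the mean covered share, across domains that share the same libraries. The replicate difference was not confined to broad domains. Clusters under 10000 bp on the X were covered to 48.7% and 36.1%, and those on the large autosomal arms to 61.2% and 61.0%.

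The same order of arms was seen at each width. At 10 to 12 kb the median covered share in replicate 2 was 61.6% on the X (31 domains) and 86.0% on the large autosomal arms (154 domains). At 12 to 15 kb it was 71.9% and 88.0%, at 15 to 20 kb 76.0% and 88.0%, and at 20 kb or more 71.1% (7 domains) and 87.7% (87 domains). In replicate 1 the gap was narrower, from 81.4% against 90.9% at 10 to 12 kb to 88.1% against 89.8% at 20 kb or more. Read depth is unknown for these lists.

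**Figure D4:**
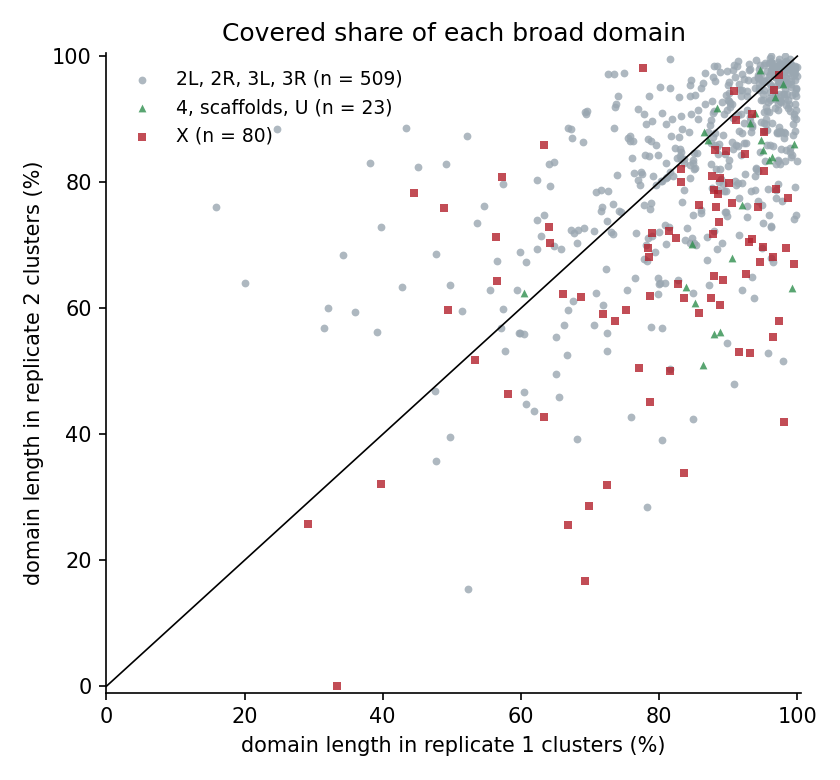
Share of each domain lying in clusters of replicate 1 (x axis, %) and of replicate 2 (y axis, %), with 1 point per domain and the line of equal coverage. Of the X domains, 69 of 80 lie below the line, and 294 of the 509 on the large autosomal arms do.

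The replicate lists broke most domains into pieces. Counting each replicate cluster with at least 1 bp in a domain as a piece, 59.2% of the domains were split into 2 or more in replicate 1 and 68.6% in replicate 2, or 63.9% ± 6.70 on average (SD, n = 2). The mean number of pieces was 2.00 in replicate 1 and 2.23 in replicate 2. In replicate 1, 250 domains were 1 piece, 210 were 2, 96 were 3, 34 were 4 and 22 were more. In replicate 2, 1 domain had no piece, 191 were 1 piece, 218 were 2, 125 were 3, 45 were 4 and 32 were more. Both replicates gave the same number of pieces for 297 domains (48.5%), replicate 2 gave more for 201 and replicate 1 for 114.

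Domains that stayed whole scored higher than those that were broken. The 145 domains that were 1 piece in both replicates had a median score of 1.03 and a median width of 12257 bp. The 315 split in both had medians of 0.74 and 14487 bp, and the 35 with 4 or more pieces in both had 0.67 and 22643 bp. Across the domains, Spearman's rho between score and number of pieces was -0.55 in replicate 1 and -0.51 in replicate 2, and between width and number of pieces it was 0.270 and 0.388. On the X, 75% and 80% of domains were split, and on the large autosomal arms 57.6% and 66.6%.

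Most breaks were short. Replicate 1 left 609 gaps between pieces inside domains, with a median of 554 bp and 67.8% under 1000 bp, and replicate 2 left 753, with a median of 605 bp and 64.7% under 1000 bp. Once replicate clusters with gaps under 1000 bp were joined, the mean share of split domains was 30.6% in place of 63.9%. Of the replicate 1 breaks, 47.6% overlapped a break of replicate 2, and 38.0% of the replicate 2 breaks overlapped a break of replicate 1. A cluster of the other replicate ran without a gap across 43.2% of the replicate 1 breaks and 53.3% of the replicate 2 breaks.

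Fewer domains were broad in a single replicate than in the set. A piece of 10000 bp or more was found in both replicates for 193 domains (31.5%), in replicate 1 alone for 98, in replicate 2 alone for 31 and in neither for 290 (47.4%). The 193 had a median score of 1.02, and the 290 had 0.71. On the large autosomal arms the widest piece of a domain measured 9899 bp (replicate 1) and 8828 bp (replicate 2) at the median, and on the X 7998 and 5323 bp. In the other direction, 301 of the 303 replicate 1 clusters of 10000 bp or more, and all 235 of replicate 2, overlapped a domain of the replicate set. Clusters of that width were 4.66% of the replicate 1 list and 3.56% of the replicate 2 list. The replicate-set list covers these same libraries, so this overlap does not check it independently. The overlapping share of all replicate clusters was not computed. The other 2 wide clusters of replicate 1 were each divided by the replicate-set list into a pair of clusters. On 3L, the replicate 1 cluster from 785951 to 796433 (10483 bp) met set clusters of 3831 and 6475 bp. On 3R, the one from 8530928 to 8541730 (10803 bp) met set clusters of 7593 and 3233 bp.

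The widest domains differed in how far each replicate broke them. The widest, on 3L from 17958426 to 18012986 (54.6 kb, score 1.07), was 1 piece of 54.0 kb in replicate 1. Replicate 2 had a piece of 15012 bp, pieces of 5727 and 2065 bp, and a piece of 29075 bp in that order along the arm, scoring 0.87, 1.03, 0.57 and 1.21. The lowest score thus belonged to the narrowest piece. The domain on 2R from 14167504 to 14219392 (51.9 kb, 0.81) lay in 7 and 10 pieces, covering 89.9% and 82.6%, and its right-hand neighbour, 353 bp away, was itself a broad domain. The domain on 2R from 6369746 to 6416586 (46.8 kb, 0.82) lay in 5 and 9 pieces, covering 90.7% and 85.3%.

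The next widest domains followed no single pattern. The 42.3 kb domain on 2L from 8626498 to 8668770 lay in 7 and 11 pieces, the most of any domain in replicate 2, with 73.3% and 76.5% covered. On 3R, the domain from 5827770 to 5868358 (40.6 kb) had the highest score of the 10 widest, 1.13, lay in 3 pieces in each replicate and was covered to 94.7% and 93.1%. The 3R domain from 27243458 to 27283082 (39.6 kb) had the lowest of these scores, 0.67, and lay in 7 pieces in each, covered to 82.9% and 87.2%. On 3L, the domain from 2782478 to 2820716 (38.2 kb) lay in 2 and 3 pieces covering 96.6% and 96.9%, and the one from 22281828 to 22319950 (38.1 kb) in 4 and 6 pieces covering 85.0% and 82.2%. Another of the 10 lay on 2RHet, from 3136382 to 3177472 (41.1 kb), in 2 pieces in each replicate.

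The widest X domain, from 11387332 to 11428932 (41.6 kb, score 0.72), was also among the 10 widest and was the most broken one in replicate 1. That replicate held it as 10 pieces of 1693 to 6543 bp, and replicate 2 as 5 pieces of 1450 to 7538 bp. Coverage was 78.7% in replicate 1 and 45.1% in replicate 2. No piece reached 10000 bp in either replicate.

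The least covered domain was also on the X, from 4997988 to 5013362 (15.4 kb, score 0.56). Replicate 1 held 3 pieces there, of 1323, 1846 and 1963 bp, covering 33.4%, and replicate 2 held none. The X domain from 1308704 to 1319920 (11.2 kb, 0.61) was covered to 29.1% and 25.8%, and the 3L domain from 20864308 to 20874902 (10.6 kb, 0.47) to 52.4% and 15.4%. All 3 scored below the lower quartile of the domains, 0.70.

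Single domains differed between the replicates in both directions. Replicate 1 covered more of X 17030962 to 17041626, at 98.0% against 41.9%, of X 12749926 to 12760910, at 69.2% against 16.8%, and of 3L 3564160 to 3578678, at 78.3% against 28.4%. Replicate 2 covered more of 3R 18004400 to 18015040, at 88.4% against 24.7%, of 2L 3112096 to 3122138, at 76.1% against 15.9%, and of 2R 9341350 to 9356222, at 88.6% against 43.3%. These are the extremes of 612 differences, whose quartiles were -11.1 and 3.00 percentage points (replicate 2 minus replicate 1).

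**Figure D5:**
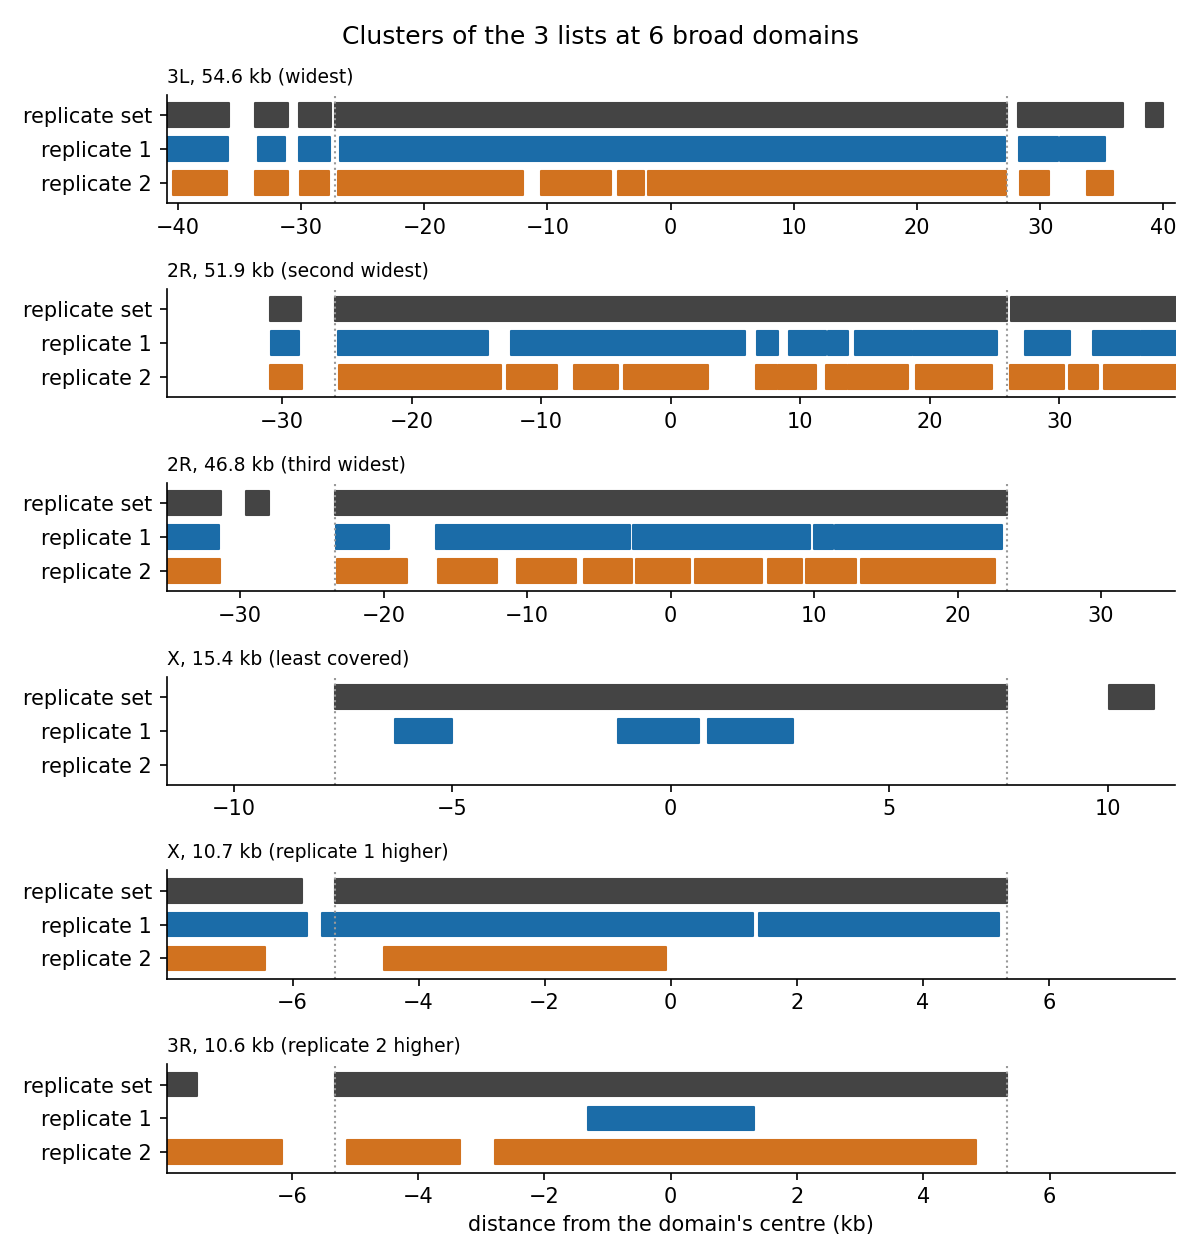
Clusters of the replicate set and of each replicate, as bars against the distance from the domain's centre in kb, at the 3 widest domains, the least covered one and the ones with the greatest difference in each direction; dotted lines mark the domain's edges. The 54.6 kb domain on 3L is 1 bar in replicate 1 and 4 bars in replicate 2, and the 15.4 kb domain on the X has 3 bars in replicate 1 and none in replicate 2.

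Neighbouring clusters lay close to the domains, and almost as close to narrower clusters. By width, the median nearest gap was 1127 bp at 1 to 2 kb, 846 bp at 4 to 6 kb and 803 bp at 8 to 10 kb. It was 777 bp at 10 to 12 kb and 891 bp at 12 to 15 kb. Over all domains, the nearest neighbour was a median of 802 bp away and under 1000 bp away for 364 (59.5%), against 941 bp and 51.6% for clusters under 10000 bp. On both sides the gap was under 1000 bp for 82 domains (13.4%), against 11.4% of the narrower clusters. The median width of a domain's neighbours was 3429 bp, and that of the neighbours of narrower clusters was 2398 bp. A nearest gap of 10000 bp or more was found for 18 domains (2.94%) and for 5.89% of the narrower clusters. When replicate-set clusters with gaps under 1000 bp were joined first, 1042 clusters in place of 612 reached 10000 bp.

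From one domain to the next, spacing varied over several orders of magnitude. The median gap over 601 neighbouring pairs was 88.8 kb, with quartiles of 19.2 and 250.3 kb. It was under 10000 bp for 109 pairs (18.1%), under 1000 bp for 28, and 100000 bp or more for 286 (47.6%). In 75 pairs no other cluster lay between the domains. The median gap was 87.5 kb on the large autosomal arms and 133 kb on the X.

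Some domains lay in tight runs. With neighbours under 10000 bp apart joined into a run, 192 domains (31.4%) fell into 83 runs and 420 stood alone. Of the runs, 61 held 2 domains, 18 held 3 and 4 held 4. The run with the most domain bases spanned 119 kb of 2L, from 8550098 to 8668770, with domains of 10.5, 25.04, 15.2 and 42.3 kb. Their scores were 0.66, 0.64, 0.67 and 0.74, all below the median of the domains, and the replicates covered 76.2% and 77.7% of them.

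Both runs of 4 domains on 3R scored higher than that one. The wider spanned 100.9 kb from 5700790 to 5801680, where domains of 36.2, 16.2, 16.5 and 22.5 kb scored between 0.75 and 1.02 and took up 90.6% of the stretch. The replicates covered 89.5% and 91.6% of these domains, and the domains of 16.5 and 22.5 kb were 1 piece in each. The other, from 18537740 to 18618490 (80.8 kb), held domains of 12.3, 14.4, 19.3 and 11.2 kb that scored between 0.91 and 1.18. They were covered to 98.8% and 92.6%. The remaining run of 4 lay on 2L, from 3057024 to 3122138 (65.1 kb), with scores from 0.47 to 1.04, and its domains were covered to 64.0% and 76.5%.

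Domains were found in nearly every megabase of the major arms. Of 118 full windows of 1 Mb, 116 held the midpoint of at least 1 domain, with a median of 5 per window on the large autosomal arms and 3 on the X. The fullest was 3L 3000001 to 4000000, with 12, followed by 3L 16000001 to 17000000 and 3R 18000001 to 19000000, with 11 each. The empty ones were 2L 10000001 to 11000000 and 3R 8000001 to 9000000. These windows lay in the longest stretches between domains, 1587 kb of 2L from 9519949 to 11106951 and 1835 kb of 3R from 7727451 to 9562459. Neither stretch was free of the mark, since they held 134 and 99 narrower clusters. The third longest, 1463 kb of the X from 20395789 to 21858619, held 82.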

How the data were processed

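Head nuclei of Oregon-R flies were profiled by ChIP-seq with 2 H3K27me1 ChIP libraries and 2 Input libraries, and 3 deposited cluster lists were used. Bowtie 0.12.7 was used per the submitters' processing notes, and coordinates are of FlyBase release 5 per the file headers. Neither the cluster caller and its threshold nor the way of combining replicates is given in the sources used here. The deposited score per cluster is the authors' own value with no stated unit. It was read as log2 because 82.6% of 190 pairs among the 20 highest scores of the replicate set differed by the log2 of a ratio with a denominator of at most 50 (tolerance 1e-06), against 3.16% for base 10. In the lists of replicates 1 and 2 the share was lower, at 51.6% and 52.1%, against 2.63% and 5.26% for base 10. A constant added to all scores would not show in these shares. Depth is unknown, so enrichment has no counting interval.

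Values were computed in Python 3.11.15 (pandas 2.3.3, numpy 2.4.6 and scipy 1.17.1) and drawn with matplotlib 3.10.9. Widths are end minus start plus 1. Ends past the sequence length (1 in the replicate set, 1 in replicate 2) were set to it. Neighbouring clusters of the replicate set overlapped in 2 places. Covered share is the part of a domain in clusters of a replicate. Code was tested on simulated lists.

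The members and the settings were chosen with earlier results of these data known. Named regions are the 10 widest domains, the widest of each sequence, the highest scores, the most pieces, the least and most unequally covered, the runs with most domains, and those beside the minimum width. No test was run: the members were chosen by width in a list for the same replicates. The gene table at hand is of release 6 and gave no gene to a domain. Alternatives are in the closing section.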

Additional observations from a re-analysis of the deposited data

How the results depend on the processing

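No paired analysis was possible because no result comes from a test, and the Input libraries that share replicate numbers with the ChIP libraries have no list of their own here. Of 49 alternative values, 31 stayed within the spread of the reported one (1 SD of the replicates, a 95% binomial interval, or 1.5 times for counts) and 18 moved. None reversed. The 31 include the values that leave out 1 replicate. With 2 replicates, such a value always lies within 1 SD of their mean, so it stayed by construction. The 31 also include values for the major arms only, a setting that kept 594 of the 612 domains. Others among them use the upper 50% of the replicate-set list by score, which kept 601 of the 612. Both settings hold nearly the same domains, so values taken from the domains alone had little room to move. The tally of 31 is therefore a weak check on the results. The number of domains was 975 at a minimum of 8000 bp, 217 at 15000 bp and 1042 with gaps under 1000 bp merged in the replicate-set list. That merging also moved the score difference to 0.31, the nearest gap to 2020 bp, the distance to the next domain to 45959 bp, the covered share to 72.3% and the split share to 81.2%. At 8000 and 15000 bp the distance was 47293 and 274223 bp, and the split share 55.4% and 76.0%. In the upper 50% of the replicate-set list by score, the score difference was 0.19 and the nearest gap 1809 bp. In the upper 50% of each replicate list, the covered share was 70.2%, the split share 32.4% and the X difference -0.986 percentage points. Merging replicate gaps under 1000 bp gave a split share of 30.6%. Leaving out 1 replicate gave 81.7% to 85.7% for the covered share, 59.2% to 68.6% for the split share and -17.6 to -5.18 for the X difference. The X to autosome ratio of domains per Mb ran from 0.559 to 0.730. Those alternatives all used the replicate-set list. For clusters of 10000 bp or more in the single replicate lists the ratio was lower, at 0.399 in replicate 1 and 0.157 in replicate 2. Beyond what each alternative does by its construction, the cause of these moves was not tested. With 2 replicates and unknown depth, differences in splitting and coverage can be described only.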

Other observations

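On the heterochromatic scaffolds, clusters were few but often broad: 17 of 91 replicate-set clusters (18.7%, exact 95% binomial interval 11.3% to 28.2%) reached 10000 bp, against 6.31% on the major arms, and the domains made up 60.3% of the covered scaffold length. Most lay on 2RHet, where 10 domains held 72.2% of the covered length. The interval treats clusters as independent and covers counting error only. In the replicate lists the share of scaffold clusters that reached 10000 bp varied widely. It was 24.6% in replicate 1 and 7.35% in replicate 2, against 4.51% and 3.55% on the major arms. The scaffold domains were covered to 90.9% in replicate 1 and 80.4% in replicate 2, and 15 of the 17 held a piece of 10000 bp or more in replicate 1 but 5 in replicate 2. On 3LHet the widest domain, from 2410250 to 2429854 (19.6 kb, score 1.07), was covered to 99.5% and 86.1%. The only domain of 3RHet, from 1683116 to 1705148 (22.0 kb, 1.02), was 1 piece in replicate 1 and 3 in replicate 2, covered to 88.3% and 91.7%. That of 2LHet, from 19822 to 30868 (11.0 kb, 0.99), was covered to 95.0% and 85.0%.

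Chromosome 4 held 5 domains, all covered more in replicate 1 than in replicate 2. The widest, from 111466 to 130284 (18.8 kb, score 0.78), was covered to 94.7% and 86.6%, in 1 piece and 3 pieces. The domain from 938610 to 950068 (11.5 kb, 0.76) differed most, at 99.3% and 63.1%. The domain on U was covered to 86.4% and 51.0%.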
